A study of Homo sapiens with 4 samples.

Results

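Integrins are the cell surface receptors by which fibroblasts hold on to the matrix, and the genes of 10 integrin subunits known from fibroblasts were followed here: ITGA1, ITGA2, ITGA3, ITGA5, ITGA11 and ITGAV, which encode alpha subunits, and ITGB1, ITGB3, ITGB5 and ITGB8, which encode beta subunits. They were found by gene symbol among the 58870 genes of each table, all 10 were present, and all 10 passed the filter on low counts. RNA was measured in 4 libraries of BJ cells, a line of human foreskin fibroblasts. In 2 libraries the cells were exposed to Dox, an abbreviation that the labels do not spell out, at 250 nM, and in the other 2 to the solvent DMSO. The exposure lasted 24 hours, and 10 days were given for senescence to set in; the labels and the series text can be read differently on which came first. The titles call the Dox libraries aged and the DMSO libraries young controls, the series title concerns the centromere during ageing, and its design asks which transcripts differ between the treatments. All 4 libraries come from 1 cell line, and the labels do not say whether replicates were separate cultures, and the spread on which every p-value rests may be purely technical.

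An integrin is a pair of one alpha and one beta chain, and the alpha chain largely sets what it binds. The products of ITGA1, ITGA2 and ITGA11 bind collagens, that of ITGA3 binds laminins and that of ITGA5 binds fibronectin, each paired with the beta chain of ITGB1. The alpha chain of ITGAV pairs with several beta chains, those of ITGB1, ITGB3, ITGB5 and ITGB8 among them, and binds proteins with an RGD motif, including vitronectin and the latent form of TGF-beta. Ligand binding outside the cell is coupled through talin and kindlin to the actin cytoskeleton in focal adhesions.

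Expected counts summed to 42880682 and 43429426 in the Dox libraries and to 42744729 and 47798920 in the DMSO libraries. The replicates of the Dox pair differed more than those of the DMSO pair, with a chi-square per degree of freedom of 60.5 in the Dox pair and 2.4 in the DMSO pair. The 10 fibroblast markers, all detected, summed to 20700 and 25400 CPM (counts scaled to the library total and by TMM) in the Dox libraries and to 28700 and 28300 CPM in the DMSO libraries. Markers of endothelial cells summed to at most 4.76 CPM and those of melanocytes to at most 0.639 CPM in any library. The keratinocyte list (235 to 255 CPM over all 4 libraries) was nearly all DSP, and 2 of its 7 genes were at 0 in every library. The leukocyte list summed to 26.4 and 28.6 CPM in the Dox libraries and to 6.49 and 6.16 CPM in the DMSO libraries, nearly all of it CD68, a lysosomal membrane protein gene. The 5 measured pericyte and smooth muscle markers summed to 130 and 163 CPM in the Dox libraries and to 231 and 227 CPM in the DMSO libraries. The highest of them was CNN1, with a mean of 55.7 CPM in Dox and 136 CPM in DMSO. In such bulk libraries, fewer cells of a type and less RNA per cell cannot be told apart.

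Of the 10 integrin subunit genes, 2 rose in Dox, ITGA2 and ITGA3, and 3 fell, ITGA11, ITGA1 and ITGAV, while 5 did not pass the test (edgeR's quasi-likelihood test, adjusted over all 16749 tested genes, threshold 0.05). Among all tested genes 16.5% were higher and 13.8% were lower by the same rule, 30.3% in all. The median log2 fold change of the 10 genes was -0.33, beside -0.0023 over all tested genes. In every one of the 10 genes both Dox libraries lay on one side of both DMSO libraries in CPM, 3 above and 7 below, where 69.1% of all tested genes had groups that did not overlap (34.6% above and 34.5% below). The 4 beta subunit genes all lay below DMSO in both Dox libraries in CPM, and none of the 4 passed the test. In TPM, the deposited values per transcript length, the groups overlapped for all 4, and the fitted direction of ITGB1 was the opposite one.

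**Figure D1:**
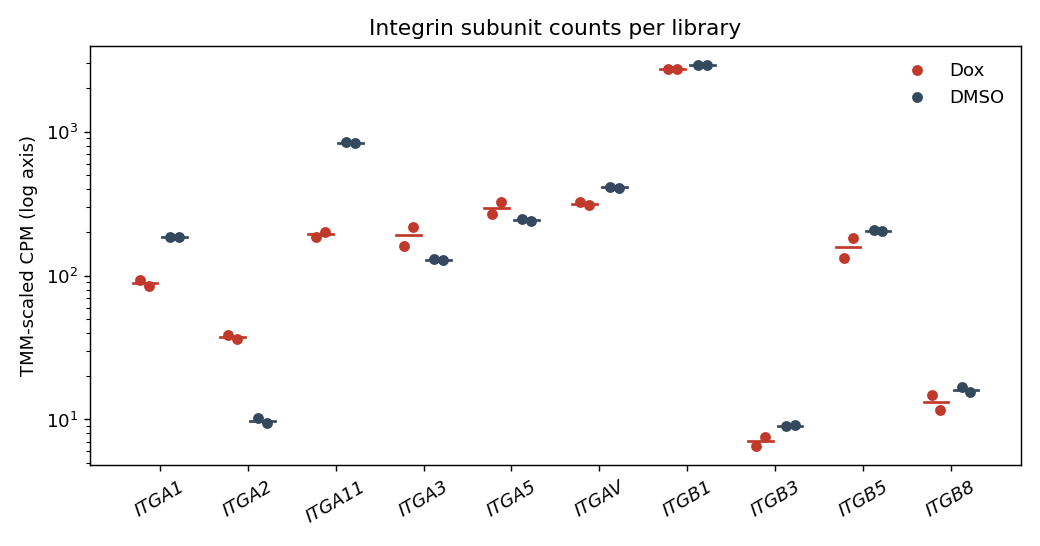
TMM-scaled CPM (log axis) of each integrin subunit gene, with 1 point per library and a line at the group mean of the 2 Dox (red) and 2 DMSO (dark) libraries. ITGA11 and ITGA1 sit lower and ITGA2 sits higher in both Dox libraries, while ITGB1 lies between 2736 and 2911 CPM in all 4 libraries.

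The 3 collagen-binding alpha subunits among the 10 genes moved in opposite directions. ITGA11, which encodes the alpha chain of a fibroblast receptor for fibrillar collagens (chromosome 15, 68296533 to 68432162, minus strand), had 186 and 202 CPM in the Dox libraries, against 848 and 829 CPM in the DMSO libraries. Every Dox value was far below every DMSO value, and the spread within each pair was small beside the gap. Its log2 fold change was -2.11 (SE 0.08, edgeR adjusted p = 7.02e-05), or 4.32-fold lower in Dox. Among the 10 genes this was the largest change in size.

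ITGA2, which encodes a collagen and laminin receptor chain that is also carried by platelets and epithelial cells (chromosome 5, 52989326 to 53094779, plus strand), had 38.8 and 36.5 CPM in the Dox libraries, against 10.2 and 9.43 CPM in the DMSO libraries. The groups did not overlap, and the gene was 3.84-fold higher in Dox (log2 fold change 1.94, SE 0.09, edgeR adjusted p = 0.000104). The counts behind these values were 1660 and 1655 in the Dox libraries and 425 and 442 in the DMSO libraries. Of the 3 collagen-binding subunits followed here, ITGA2 alone rose.

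ITGA1, whose product favours basement membrane collagen (chromosome 5, 52787896 to 52959210, plus strand), had 92.6 and 84.2 CPM in the Dox libraries, against 185 and 186 CPM in the DMSO libraries. It fell by 1.07 on the log2 scale (SE 0.08, edgeR adjusted p = 0.000397), with no overlap between the groups. ITGA1 and ITGA2 are neighbours on the same strand, with 30115 bases between them in GENCODE 29 (GRCh38), and moved in opposite directions. The gene PELO, which lies within the span of ITGA1 on the same strand, had 1613 and 1971 counts in the Dox libraries and 1871 and 2221 counts in the DMSO libraries. ITGA1 itself had 3960 and 3821 counts in the Dox libraries and 7718 and 8707 counts in the DMSO libraries. The deposited expected counts of 8 of the 10 genes were exactly whole in every library, with no tolerance allowed, and those of ITGA1 and ITGB1 were not. The summed pericyte and smooth muscle markers were lower in Dox, as were ITGA1 and ITGA11 (130 and 163 CPM in Dox, 231 and 227 CPM in DMSO). A large part of that sum was 1 gene, CNN1, with a mean of 55.7 CPM in Dox and 136 CPM in DMSO. The sum therefore does not show that the marker list fell as a whole, and its part in the result was not tested.

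The promoter windows of these 3 genes are shown because they belong to the largest rise and the 2 largest falls among the 10 followed genes. Each holds 250 bases before the start site and 50 bases from it on, from RefSeq (GRCh38.p14), 5′ to 3′ on the strand of the gene. Capitals mark matches, on either strand, to 5 motifs: the AP-1 motif TGANTCA, the TEAD motif CATTCC, the GC box GGGCGG, the TATA box TATAAA and the CCAAT box CCAAT.
ITGA11 (chr15:68432114-68432413, - strand): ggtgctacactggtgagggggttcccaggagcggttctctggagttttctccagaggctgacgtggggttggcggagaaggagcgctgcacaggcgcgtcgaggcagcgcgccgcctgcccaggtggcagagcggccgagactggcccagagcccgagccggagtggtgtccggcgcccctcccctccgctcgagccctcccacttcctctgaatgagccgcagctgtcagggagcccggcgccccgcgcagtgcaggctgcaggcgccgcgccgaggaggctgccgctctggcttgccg
ITGA2 (chr5:52989102-52989401, + strand): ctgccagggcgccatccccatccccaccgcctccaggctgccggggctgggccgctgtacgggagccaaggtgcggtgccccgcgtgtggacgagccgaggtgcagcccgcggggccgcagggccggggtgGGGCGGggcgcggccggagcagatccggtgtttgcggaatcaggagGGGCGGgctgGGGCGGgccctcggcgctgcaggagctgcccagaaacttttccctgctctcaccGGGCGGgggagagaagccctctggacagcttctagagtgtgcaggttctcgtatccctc
ITGA1 (chr5:52787666-52787965, + strand): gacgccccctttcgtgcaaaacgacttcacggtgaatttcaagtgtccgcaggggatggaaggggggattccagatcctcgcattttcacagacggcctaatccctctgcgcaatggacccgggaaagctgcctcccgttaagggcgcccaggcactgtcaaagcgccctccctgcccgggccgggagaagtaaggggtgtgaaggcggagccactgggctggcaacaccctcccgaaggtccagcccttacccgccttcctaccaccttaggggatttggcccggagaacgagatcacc
The ITGA2 window holds 4 GC boxes, of which the nearest to the start site begins 9 bases before it, and no other match. The windows of ITGA11 and ITGA1 hold no match to any of the 5 motifs. Among the 35116 promoter windows of the table, a GC box is found in 45.0%, a CCAAT box in 34.6%, a TEAD motif in 14%, a TATA box in 11.5% and an AP-1 motif in 7.71%. Of the 8 subunit genes with an entry in the table, ITGA5 alone held an AP-1 match, which begins 6 bases before its start site.

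Of the laminin and fibronectin receptor chains, ITGA3 rose in Dox and ITGA5 did not pass the test. ITGA3, the laminin receptor chain (chromosome 17, 50055968 to 50090481, plus strand), had 162 and 219 CPM in the Dox libraries, against 130 and 129 CPM in the DMSO libraries. Both Dox libraries lay above both DMSO libraries, but they also differed widely from each other. ITGA3 rose by 0.56 on the log2 scale (SE 0.14, edgeR adjusted p = 0.0287). The call was lost without DMSO replicate 1 (log2 fold change 0.55, edgeR adjusted p = 0.0813) or DMSO replicate 2 (0.54, edgeR adjusted p = 0.1), its 13 alternatives giving 2.33e-92 to 0.694, and leaving out Dox replicate 1 gave 0.75, against 0.32 on leaving out Dox replicate 2. Where a Dox library is left out, the spread is set by the close DMSO pair alone, which gives the smallest of these p-values.

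ITGA5, the fibronectin receptor chain (chromosome 12, 54395261 to 54419460, minus strand), had 269 and 324 CPM in the Dox libraries, against 249 and 241 CPM in the DMSO libraries. The Dox values were the higher ones, but the log2 fold change of 0.28 (SE 0.10) did not pass (edgeR adjusted p = 0.0942). Leaving out Dox replicate 1 gave 0.39, and leaving out Dox replicate 2 gave 0.13. Its ligand fibronectin, encoded by FN1, had a log2 fold change of 0.0054 (SE 0.06), named after its value was seen.

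ITGAV, the alpha chain shared by the RGD-binding receptors (chromosome 2, 186590065 to 186680901, plus strand), had 324 and 310 CPM in the Dox libraries, against 414 and 406 CPM in the DMSO libraries. The groups did not overlap, and the gene fell by 0.37 on the log2 scale (SE 0.07, edgeR adjusted p = 0.0116). It did not pass without DMSO replicate 1 (edgeR adjusted p = 0.209) or DMSO replicate 2 (edgeR adjusted p = 0.189), its 13 alternatives giving 9.12e-31 to 1.

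The beta chains that pair with the ITGAV product each had lower CPM in both Dox libraries than in DMSO, and no one of them passed. ITGB5, which encodes a vitronectin receptor chain (chromosome 3, 124761948 to 124901418, minus strand), had 133 and 183 CPM in the Dox libraries, against 206 and 206 CPM in the DMSO libraries. Dox replicate 1 was well below the other 3 libraries and Dox replicate 2 only a little below DMSO, so that the log2 fold change of -0.38 (SE 0.15, edgeR adjusted p = 0.0982) became -0.18 when Dox replicate 1 was left out and -0.63 when Dox replicate 2 was left out. ITGB3, the beta chain of the classical vitronectin receptor (chromosome 17, 47253846 to 47311816, plus strand), had 279 and 344 counts or 6.52 and 7.58 CPM in the Dox libraries, against 374 and 427 counts or 8.96 and 9.11 CPM in the DMSO libraries. Its log2 fold change was -0.36 (SE 0.12, edgeR adjusted p = 0.0695). ITGB8, whose product activates latent TGF-beta together with the alpha chain of ITGAV (chromosome 7, 20330702 to 20415754, plus strand), had 14.8 and 11.6 CPM in the Dox libraries, against 16.8 and 15.5 CPM in the DMSO libraries. Its groups lay close together, and the log2 fold change of -0.29 (SE 0.13) did not pass (edgeR adjusted p = 0.149). Leaving out Dox replicate 1 gave -0.49, and leaving out Dox replicate 2 gave -0.13.

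ITGB1, the common partner of the collagen, laminin and fibronectin receptor chains (chromosome 10, 32900319 to 33005792, minus strand), had 2741 and 2736 CPM in the Dox libraries, against 2894 and 2911 CPM in the DMSO libraries. The groups did not overlap, but the gap was small, and the log2 fold change of -0.08 (SE 0.06) did not pass (edgeR adjusted p = 0.345). With 117231 and 124128 counts in the Dox libraries and 120793 and 136485 counts in the DMSO libraries it was the most deeply counted of the 10 genes. On the log2(TPM + 1) scale its log2 fold change was 0.06, of opposite sign.

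**Figure D2:**
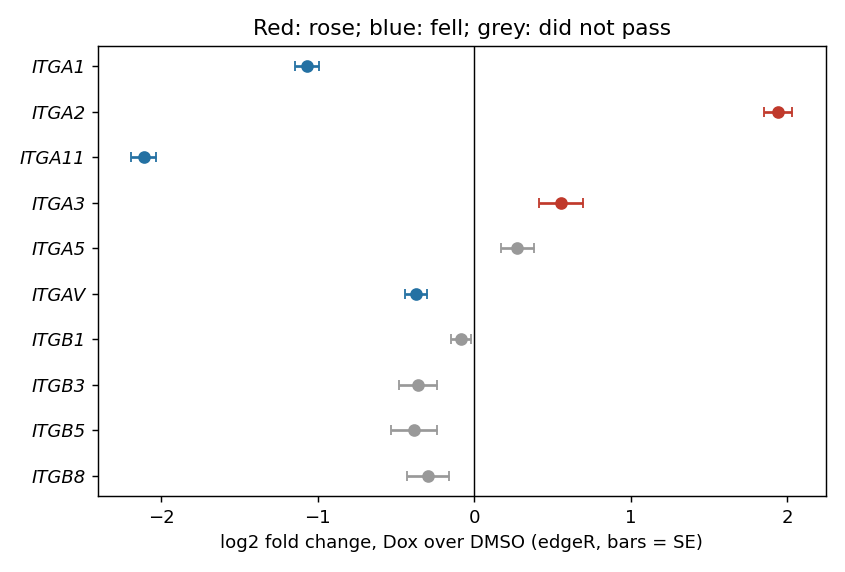
The log2 fold change of each integrin subunit gene, Dox over DMSO, from edgeR with its standard error, ordered by role from collagen receptor chains at the top to beta chains at the bottom. Red points rose, blue points fell and grey points did not pass; ITGA11 (-2.11) and ITGA2 (1.94) lie farthest from 0.

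The antisense and other genes that overlap the subunit genes in GENCODE 29 had few counts. Apart from PELO, the highest was AC022336.3 within ITGB5, with 54 and 50 counts in the Dox libraries and 56 and 66 in the DMSO libraries. ITGB1-DT, on the strand opposite ITGB1, had 17 and 22 counts in the Dox libraries and 6 and 8 counts in the DMSO libraries. Whether the counting used strand is not given in the sources used here, so reads of opposite genes may not have been told apart.

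Compared per length, in TPM, ITGB1 ranked first of the 10 genes in every library. Its TPM was 3.68 and 3.11 times the summed TPM of the 6 alpha subunits in the Dox libraries, against 2.52 and 2.52 times in the DMSO libraries. ITGA11 ranked sixth in both Dox libraries and second in both DMSO libraries. ITGA5 ranked second in both Dox libraries, with 17.02 and 33.56 TPM, against 19.9 and 20.1 TPM in the DMSO libraries. In DMSO, ITGA5 and ITGB5 (19.9 and 20.3 TPM) could not be ordered beyond their spread, nor could ITGA3 (10.9 and 11.0 TPM) and ITGA1 (10.0 and 11.3 TPM). In Dox the levels of ITGAV (12.3 and 18.9 TPM), ITGA3 (12.0 and 24.9 TPM) and ITGB5 (11.3 and 25.7 TPM) overlapped. ITGA2 was eighth in both Dox libraries (1.30 and 1.97 TPM) and last in both DMSO libraries (0.38 and 0.40 TPM). ITGB3 (0.43 and 0.79 TPM in Dox, 0.68 and 0.69 TPM in DMSO) and ITGB8 (0.50 and 0.65 TPM in Dox, 0.61 and 0.59 TPM in DMSO) stayed under 1 TPM in each library.

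The make-up of the alpha chain RNA differed between the groups. A share of the summed alpha TPM does not depend on how a library was scaled. The shares of a sum are tied, however, so the fall of ITGA11 alone raises the shares of the other chains. A larger share is therefore not by itself a rise of that gene. ITGA11 made up 10.7% and 13.4% of the summed TPM of the 6 alpha subunits in the Dox libraries, against 36.5% and 36.6% in the DMSO libraries. ITGA3 made up 22.8% and 24.8% in the Dox libraries, against 11.8% and 11.5% in the DMSO libraries. ITGA5 made up 32.2% and 33.4% in the Dox libraries, against 21.5% and 21.1% in the DMSO libraries. Thus ITGA5 was the most abundant alpha chain RNA in Dox and ITGA11 in DMSO, although the change of ITGA5 did not pass the test. The 3 collagen-binding chains together made up 21.7% and 23.0% in the Dox libraries, against 47.7% and 48.8% in the DMSO libraries. Within that group, the TPM of ITGA2 was 0.288 and 0.258 times that of ITGA1 in the Dox libraries, against 0.0378 and 0.0356 times in the DMSO libraries. The share of ITGAV was 23.3% and 18.8% in the Dox libraries and 18.9% and 18.5% in the DMSO libraries, where the groups overlapped. Its share of the summed counts did not overlap, with 30.2% and 26.3% in the Dox libraries and 22.5% and 22.6% in the DMSO libraries. That share was higher in Dox although ITGAV fell in CPM. An exact two-sided permutation test gave p = 0.333 for each of these shares and ratios whose groups did not overlap, which is the smallest p that 2 libraries against 2 allow. Shares of the raw counts, which do not use the length estimates, gave the collagen-binding chains 29.6% and 27.5% in the Dox libraries, against 56.8% and 56.9% in the DMSO libraries. Between the 2 Dox libraries the length estimate differed most for ITGA11. Its effective length was 8127 and 5944 bases in the Dox libraries and 7050 and 6849 bases in the DMSO libraries. For ITGA5 the estimate was longer in both Dox libraries (3894 and 3832 bases) than in the DMSO libraries (3514 and 3446 bases).

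**Figure D3:**
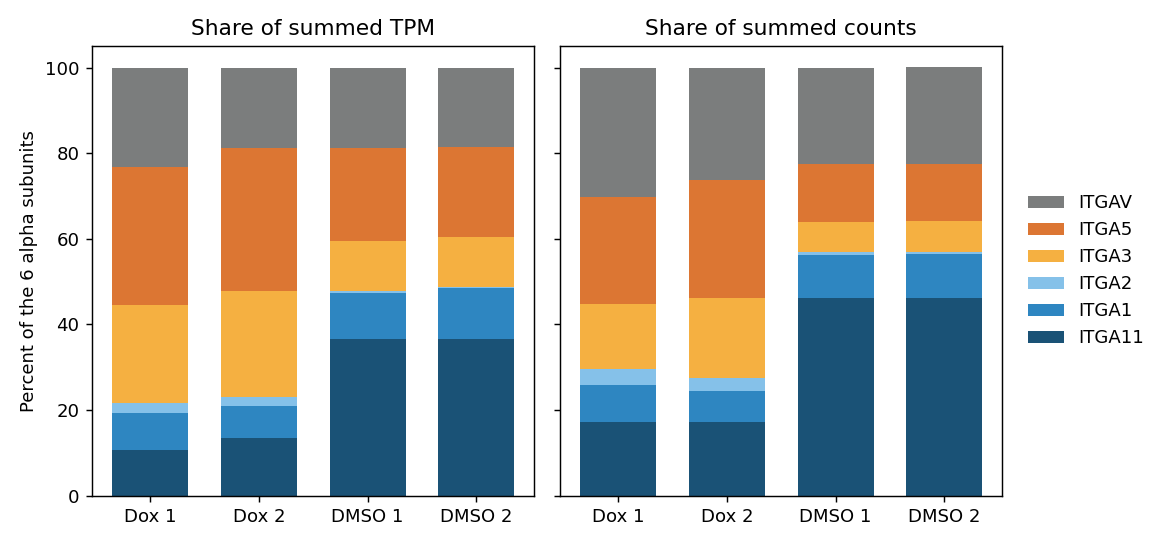
Share of each alpha subunit in the summed TPM (left) and summed counts (right) of the 6 alpha subunit genes, with 1 bar per library and the Dox libraries left of the DMSO libraries. The 3 collagen-binding chains, in blue, take 21.7% and 23.0% of TPM in Dox, against 47.7% and 48.8% in DMSO.

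The 2 Dox libraries differed from each other along the GC content of the transcripts, and this touched several subunit genes. Across the 10 genes the log2 ratio of Dox replicate 2 over Dox replicate 1 followed transcript GC content with Pearson r = 0.89 and Spearman rho = 0.82, as a description across 10 genes that share 2 libraries, while the DMSO pair gave r = 0.21 and rho = -0.15. Over the 16717 tested genes with a GC value, rho was 0.63 for the Dox pair and 0.026 for the DMSO pair. The GC-rich genes ITGB5 (54.6% GC), ITGA3 (59.1% GC) and ITGA5 (56.2% GC) had log2 ratios of 0.46, 0.44 and 0.27 in the Dox pair. The ratio was -0.33 for ITGB8 (41.1% GC), -0.14 for ITGA1 (37.8% GC) and -0.07 for ITGAV (39.0% GC). With an offset for each library's GC trend, the standard errors were smaller for all 10 genes. ITGA5 was then 0.26 (SE 0.06), ITGB5 -0.40 (SE 0.10), ITGB3 -0.36 (SE 0.09) and ITGB8 -0.32 (SE 0.09). These 4 passed the test in that fit, so that 3 genes were higher, 6 were lower and ITGB1 alone did not pass. By that rule 22.6% of all tested genes were higher and 24.2% were lower. The offsets were estimated from these same libraries and then treated as known. The smaller standard errors therefore leave out the error of the offsets, and a group difference that follows GC is taken out too.

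**Figure D4:**
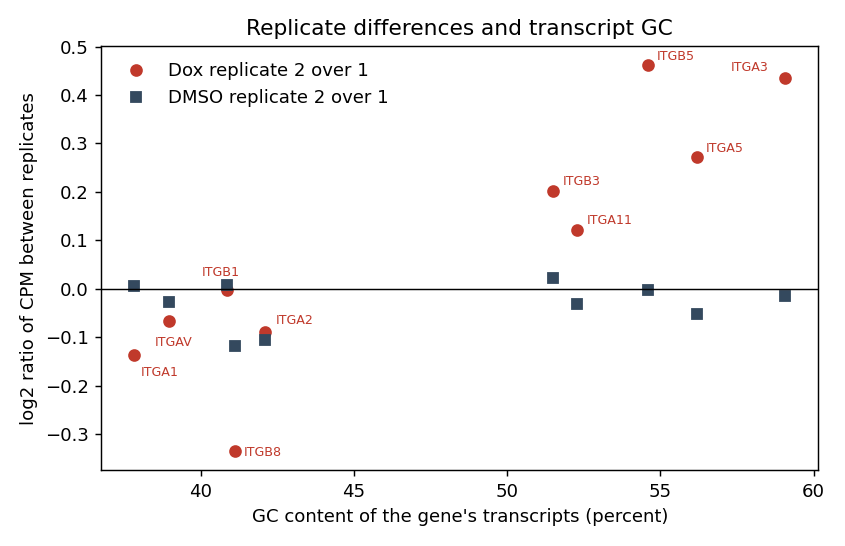
For each integrin subunit gene, the log2 ratio of CPM between replicates (vertical axis) against the GC content of its transcripts in percent (horizontal axis), for the Dox pair (red circles) and the DMSO pair (dark squares). The Dox ratios run from -0.33 for ITGB8 to 0.46 for ITGB5, and the DMSO ratios stay between -0.12 and 0.02.

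Of the 16 other integrin subunit genes, 9 had enough counts to be tested, of which 2 rose, 5 fell and 2 did not pass, beside 16.5% higher and 13.8% lower over all tested genes. Their median log2 fold change was -0.42. ITGA8, an RGD-binding partner of the ITGB1 product found in smooth muscle and mesenchyme, had 2.362 and 2.204 CPM in the Dox libraries, against 16.7 and 14.9 CPM in the DMSO libraries (log2 fold change -2.79, SE 0.13, edgeR adjusted p = 9.48e-05). It was the largest fall among all integrin subunit genes tested. ITGA7, a laminin receptor chain of muscle, had 15.8 and 19.5 CPM in the Dox libraries, against 5.18 and 5.25 CPM in the DMSO libraries, and rose by 1.76 (SE 0.13). The laminin receptor chain genes ITGA6 and ITGB4, whose products pair in hemidesmosomes of epithelia, fell by 0.42 (SE 0.08) and by 1.07 (SE 0.15) on the log2 scale. ITGA4, which encodes a receptor chain for fibronectin and VCAM1, fell by 0.68 (SE 0.08), with 116 and 105 CPM in the Dox libraries and 182 and 174 CPM in the DMSO libraries. ITGAE, named as a lymphocyte integrin chain, fell by 0.60 (SE 0.10). ITGA9, a receptor chain for tenascin-C and other ligands, had 17 and 13 counts in the Dox libraries and 1 and 0 counts in the DMSO libraries, or 30.2 times as many per library size (exact 95% interval 5.01 to 1230, counting error only), and passed the test (edgeR adjusted p = 0.00765). ITGA10 (0.34, SE 0.36) and ITGB7 (0.15, SE 0.46) did not pass. ITGAM, ITGAL, ITGAX, ITGAD and ITGB2, the leukocyte integrin genes, were at or below 0.0935 CPM in every library. ITGA6 did not pass without DMSO replicate 1 (edgeR adjusted p = 0.146) or DMSO replicate 2 (edgeR adjusted p = 0.110).

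Of the matrix proteins that integrins bind, 32 of 33 genes were tested, of which 7 rose and 10 fell, while 15 stayed short of the threshold; their median log2 fold change was -0.17. Over all tested genes 16.5% were higher and 13.8% lower. When Dox replicate 1 was left out 12 rose and 16 fell, while the shares over all genes grew to 26% and 26.7%. When Dox replicate 2 was left out 8 rose and 20 fell, beside 27% and 29.1% of all genes. Laminin chain genes moved both ways. LAMA4 had 504 and 548 CPM in the Dox libraries, against 273 and 267 CPM in the DMSO libraries (log2 fold change 0.96, SE 0.08), and LAMB3, a laminin chain of epithelia, rose by 1.93 (SE 0.22), with 4.54 and 6.35 CPM in the Dox libraries and 1.49 and 1.36 CPM in the DMSO libraries. LAMA2, the chain of the muscle laminin, had 182 and 201 CPM in the Dox libraries, against 509 and 498 CPM in the DMSO libraries (log2 fold change -1.39, SE 0.08). COL4A1, a basement membrane collagen bound by the ITGA1 product, fell by 1.31 (SE 0.12), with 412 and 530 CPM in the Dox libraries and 1171 and 1167 CPM in the DMSO libraries. FBN1, which encodes the RGD protein fibrillin-1, fell by 0.78 (SE 0.08). The fibrillar collagen genes of the list were named after their values were seen. COL3A1 (-0.56, SE 0.12, edgeR adjusted p = 0.0171) and COL5A2 (-0.88, SE 0.10, edgeR adjusted p = 0.00194) fell. COL1A1 (-0.36, SE 0.12), COL1A2 (-0.37, SE 0.11) and COL5A1 (-0.36, SE 0.15) did not pass.

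Of the 33 tested genes listed for the cytoplasmic side of the adhesion, 11 were lower, 3 were higher and 19 did not pass. The shares over all genes were 13.8% lower and 16.5% higher. This list was chosen with earlier results of these data known, so its counts do not describe adhesion genes in general. FERMT2, which encodes the kindlin that binds beta tails in fibroblasts, had 215 and 211 CPM in the Dox libraries, against 379 and 385 CPM in the DMSO libraries (log2 fold change -0.85, SE 0.07, edgeR adjusted p = 0.000612). NEDD9, a scaffold of the p130Cas family, fell by 0.97 (SE 0.07), and TGFB1I1, the paxillin relative Hic-5, fell by 0.68 (SE 0.09). PXN, which encodes paxillin itself, had 83.5 and 78.6 CPM in the Dox libraries, against 40.2 and 37.2 CPM in the DMSO libraries, and rose by 1.07 (SE 0.08). ZYX, the stretch-sensitive adhesion protein zyxin, rose by 0.38 (SE 0.08), but did not pass without DMSO replicate 1 (edgeR adjusted p = 0.176) or DMSO replicate 2 (edgeR adjusted p = 0.278). FERMT1, another kindlin gene and one chosen for mention after its values were seen, was the remaining riser, with 1.29 and 1.41 CPM in the Dox libraries and 0.575 and 0.597 CPM in the DMSO libraries. TLN1 (log2 fold change 0.17, SE 0.10) and PTK2, focal adhesion kinase (0.03, SE 0.07), also named after their values were seen, did not pass. Of the 33 genes, 8 rose and 19 fell when Dox replicate 1 was left out (26% and 26.7% of all genes), and 4 rose and 22 fell when Dox replicate 2 was left out (27% and 29.1%). When DMSO replicate 1 was left out, 2 rose and 7 fell (8.62% and 6.23%).

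Of the 16 listed genes for membrane proteins that sit beside integrins, 9 were higher, 2 were lower and 5 did not pass. Their median log2 fold change was 0.40. The shares over all tested genes were 16.5% higher and 13.8% lower. This list too was chosen with earlier results of these data known, so its counts do not describe such proteins in general. CD82, a tetraspanin, had 16.95 and 20.04 CPM in the Dox libraries, against 4.96 and 4.97 CPM in the DMSO libraries (log2 fold change 1.90, SE 0.12, edgeR adjusted p = 0.000233). L1CAM, an adhesion molecule with an RGD motif, rose by 1.21 (SE 0.09), and the syndecan SDC4, a co-receptor in focal adhesions, rose by 0.78 (SE 0.07). Its relative SDC2 fell by 1.56 (SE 0.08), with 76.4 and 83.1 CPM in the Dox libraries and 236 and 235 CPM in the DMSO libraries. SLC3A2, the CD98 heavy chain that binds beta tails, fell by 1.30 (SE 0.10). Of the genes listed around latent TGF-beta, ligand genes such as TGFB3 among them, 7 were tested, of which 3 fell and 0 rose by edgeR. Of these 7, 2 were higher at an unadjusted p under 0.05, and DESeq2 called 1 higher. Over all tested genes 13.8% were lower and 16.5% higher by edgeR. When Dox replicate 1 was left out 3 rose, beside 26% of all genes, and when Dox replicate 2 was left out 2 rose, beside 27%. TGFB3 (-1.22, SE 0.17), LTBP1 (-0.57, SE 0.08) and LTBP4 (-0.63, SE 0.17) were those that fell, and LTBP4 did not pass without DMSO replicate 1 (edgeR adjusted p = 0.0519) or DMSO replicate 2 (edgeR adjusted p = 0.0870). LTBP1, which tethers the latent complex that ITGAV receptors act on, had 113 and 125 CPM in the Dox libraries, against 180 and 175 CPM in the DMSO libraries.

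Across 13 other ways of processing the data, ITGA11 and ITGA2 passed in all 13, ITGA1 in 11, and ITGA3 and ITGAV in 9 each. The log2 fold change of ITGA11 ran from -2.18 to -1.85 and that of ITGA2 from 0.91 to 1.99. ITGA1 did not pass with limma on log2(TPM + 1) (-0.75, adjusted p = 0.457) or on log2(TPM + 0.1) (-0.84, adjusted p = 0.446), within a range of 1.63e-174 to 0.457. On the TPM scale the Dox libraries differed most from each other: ITGB1 had 194 and 312 TPM in the Dox libraries, against 233 and 240 TPM in the DMSO libraries. The small RNAs RN7SL1 and RN7SL2 took 33.0% and 42.3% of all TPM in the Dox libraries, against 43.9% and 43.8% in the DMSO libraries. Of all expected counts they took 14.7% and 12.6% in the Dox libraries, against 17.55% and 17.35% in the DMSO libraries. Their part in the TPM difference of the Dox pair was not tested. 

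The number of subunit genes called varied with the setting, and so did the share of all genes called. DESeq2's size factors gave 2 higher and 3 lower, beside 16.5% and 13.7% of all genes, and upper-quartile scaling gave 2 and 3, beside 15.5% and 14.8%. Without a filter on low counts 2 were higher and 5 lower (10.8% and 9.85%), and with at least 1 CPM in 2 libraries 2 and 3 (18.7% and 15%). DESeq2's Wald test called 2 higher and 4 lower (13.7% and 11%). limma called 1 higher, ITGA2, and 1 lower, ITGA11, on log2(TPM + 1) (3.56% and 1.18%) and on log2(TPM + 0.1) (3.8% and 1.18%). With the replicate number as a block 2 were higher and 4 lower (17.7% and 15%). Leaving out Dox replicate 1 gave 3 higher and 7 lower (26% and 26.7%), and leaving out Dox replicate 2 gave 3 and 6 (27% and 29.1%). Leaving out DMSO replicate 1 gave 1 higher and 2 lower (8.62% and 6.23%), and leaving out DMSO replicate 2 gave 1 and 2 (7.83% and 5.73%).

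**Figure D5:**
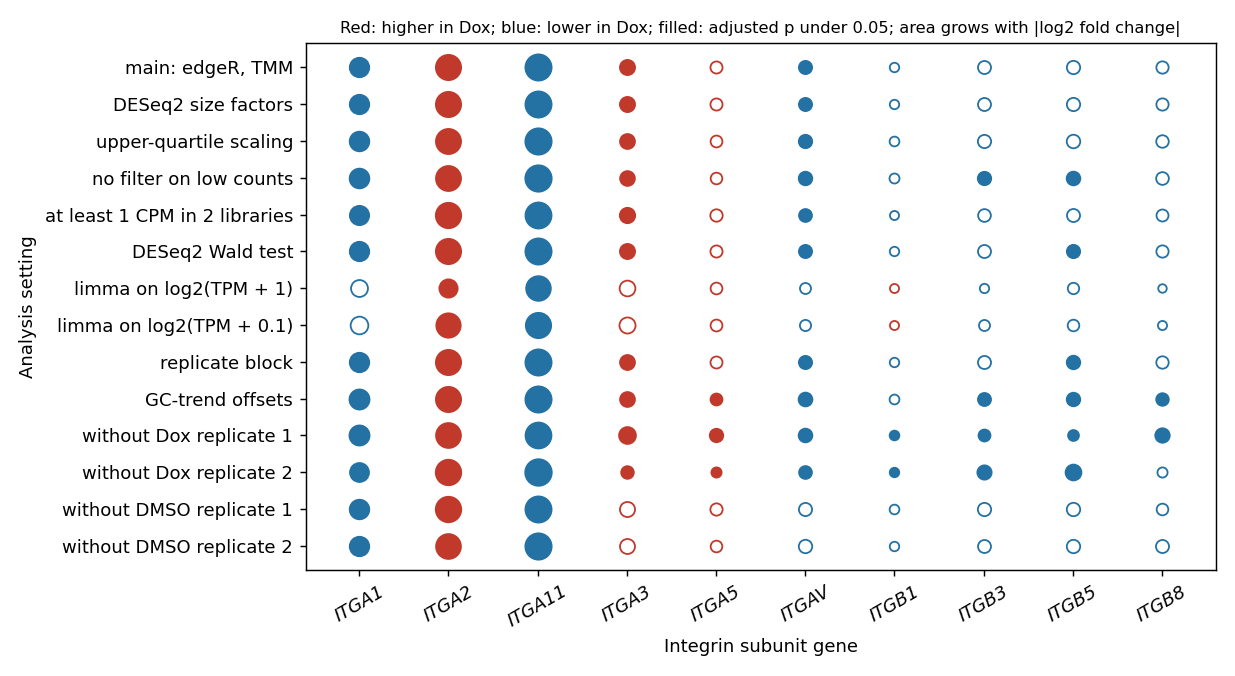
Each integrin subunit gene (horizontal axis) under the main analysis and 13 alternatives (vertical axis), where red is higher in Dox, blue is lower in Dox, filled circles have an adjusted p under 0.05 and the area grows with the size of the log2 fold change. ITGA2 and ITGA11 are filled in every row, and ITGB1 is filled only without Dox replicate 1 or without Dox replicate 2.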

How the data were processed

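Each library has 1 deposited table. The submitters' processing notes name RSEM, STAR, cutadapt, Picard and, as the build, hg38. Their versions and the annotation release: not given in the sources used here. The deposited expected counts, so named per the file headers, are estimated reads per gene and were rounded to whole numbers. The deposited TPM values and gene lengths, per the file headers, are relative to the effective length and to each library's total. The deposited FPKM values, per the file headers, were not used. Of the gene identifiers 99.5% matched GENCODE 29 (GRCh38), whose coordinates are given, 1-based.

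CPM values are counts relative to the library size multiplied by its TMM factor. Genes kept by filterByExpr (minimum count 10, minimum total 15) were scaled by TMM and tested with edgeR 4.0.16 (glmQLFit, glmQLFTest), with group as the only term and Benjamini-Hochberg adjustment over all tested genes. The standard error is the log2 fold change divided by the square root of F. limma 3.58.1, DESeq2 1.42.0, R 4.3.3 and Python 3.11.15 were also used. Named partner genes were up to 3 risers and 3 fallers per list with the smallest adjusted p at a mean of at least 1 CPM, and every tested integrin subunit. The result of 1 matrix ligand gene that this rule names is not reported here. The members and lists were chosen with earlier results of these data known. Of the genes listed around latent TGF-beta and as pericyte and smooth muscle markers, 1 each was not analysed here. Transcript GC content is length-weighted over a gene's GENCODE 29 transcripts. Counting intervals cover counting error only. Alternatives were other scalings, filters and tools, a replicate block, GC-trend offsets and leaving out each library; the closing section gives their effect.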

Additional observations from a re-analysis of the deposited data

How the results depend on the processing

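Of the 130 values of the 10 subunit genes under 13 alternatives, 101 kept their direction and side of the threshold, 17 passed where the main analysis did not, 10 no longer passed and 2 reversed, both ITGB1, which was 0.0585 with log2(TPM + 1) and 0.0585 with log2(TPM + 0.1). Of 360 values of other named genes, 311 kept both, 46 no longer passed and 3 reversed. The 3 were ITGA10 (-0.13) and ITGB7 (-0.26) without Dox replicate 2, and ITGB7 (-0.17) without DMSO replicate 1; leaving out each library in turn gave -0.13 to 0.67 for ITGA10 and -0.26 to 0.55 for ITGB7. For these reversals the cause was not tested. The median log2 fold change of all tested genes was -0.0023 in the main analysis, 0.13 with log2(TPM + 0.1) and 0.12 with no filter on low counts.

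With limma on log2(TPM + 1) and log2(TPM + 0.1) in turn, 596 and 637 of all genes were higher and 198 and 198 lower. On both TPM scales alike, 1 of the subunit genes was higher and 1 lower, 1 of the other integrin subunits was higher and 1 lower, 3 matrix ligands were higher and 1 lower, 0 adaptors were higher and 0 lower, 2 membrane partners were higher and 0 lower, and 0 latent TGF-beta genes were lower; the cause was not tested. Where limma called 0, on both scales 1 adaptor was higher and 0 lower, 2 membrane partners were lower and 1 latent TGF-beta gene was lower at an unadjusted p under 0.05; edgeR called 3 adaptors higher and 11 lower, 2 membrane partners lower and 3 latent TGF-beta genes lower. With no filter, 5 subunit genes were lower and 2 latent TGF-beta genes higher, beside 9.85% of all tested genes lower and 10.8% higher. At 1 CPM or more in 2 libraries, 1 other integrin subunit was higher, since ITGA9 was not tested there. With GC-trend offsets, 4045 of all genes (24.2%), 6 of 10 subunit genes, 17 of 32 matrix ligands and 17 of 33 adaptors were lower. In the same fit 2 of 7 latent TGF-beta genes were higher, beside 22.6% of all genes. DESeq2's Wald test gave 1 higher latent TGF-beta gene, beside 13.7% of all genes. Same-numbered libraries deviated together with a correlation of 0.042. The labels state no pairing. This value cannot decide whether there was one, since the GC trend of the Dox pair was nearly absent from the DMSO pair. With the replicate number as a block 2972 genes (17.7%) were higher and 2511 (15%) lower. In that fit 2 subunit genes were higher and 4 lower, and 1 latent TGF-beta gene was higher.

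Leaving out each library in turn gave 1368 to 4654 higher and 1000 to 5017 lower genes among all tested, the larger counts without a Dox library. The ranges were 1 to 3 higher and 2 to 7 lower for the subunit genes, 2 to 2 and 4 to 5 for other integrin subunits, 6 to 12 and 10 to 20 for matrix ligands, 2 to 8 and 7 to 22 for adaptors, 7 to 12 and 2 to 3 for membrane partners, and 0 to 3 and 2 to 4 for latent TGF-beta genes. The group left with 1 library was assumed to vary like the other. The least counted subunit gene, ITGB3, had 279 to 427 counts in the 4 libraries, so counting error weighs more on it than on ITGB1. Depth alone did not set the standard errors. That of ITGB3 (0.12) was below those of ITGB5 (0.15), ITGA3 (0.14) and ITGB8 (0.13), and above those of the other subunit genes.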
